A study of Caenorhabditis elegans with 24 samples.

Results

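The cytochrome P450 genes of Caenorhabditis elegans were followed across 3 strains with and without auxin. They were taken as all rows of the expression table whose gene symbol has the cyp form with a family number, a subfamily letter and a member number. This gave 80 of the 21982 genes in the table, of which 74 are annotated as protein-coding and 6 as pseudogenes (cyp-13A9, cyp-25A5, cyp-29A1, cyp-31A1, cyp-34A3 and cyp-35D2). In 4 or more of the 24 libraries, 59 of them reached 10 normalized counts (gene counts scaled to a common library size) and were tested, namely 58 coding genes and the pseudogene cyp-31A1. The other 21 were too low to test, and 17 of these stayed under 10 normalized counts in every library.

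The question put to the samples was what loss of RAGA-1 in all somatic tissues, or in neurons alone, does to the transcriptome. RAGA-1 is the Rag GTPase that activates mTORC1. The somatic AID strain (WBM1438) carries raga-1(wbm40)[raga-1::AID::EmGFP] and ieSi57, in which the eft-3 promoter drives TIR1::mRuby in somatic tissues, not in the germline. The neuronal AID strain (WBM1250) carries the same tagged raga-1 and wbmIs83, in which the rab-3 promoter drives 3xflag::TIR1 in neurons. Wild type was N2 and carries neither tag nor TIR1. Each strain was kept on 0.15 mM auxin from day 1 of adulthood or on plates without auxin, and about 400 whole hermaphrodites were lysed at day 3 for each library. Each of the 6 groups held 4 biological replicates. TIR1 is a plant protein that, when auxin is present, marks degron-tagged proteins for destruction, so the promoter in front of it sets the tissue. The control groups of both AID strains therefore carry the tagged raga-1 and TIR1 as well. The paper reports that in somatic AID a little tagged RAGA-1 was lost even without auxin, seen as a weaker GFP signal. The somatic AID group without auxin is thus not free of RAGA-1 depletion.

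Cytochrome P450 enzymes hold a heme and insert oxygen into fat-soluble substrates with electrons from NADPH, which a reductase (EMB-8 in C. elegans) hands over, in some reactions with the help of cytochrome b5. In the worm they act on foreign compounds taken up in the intestine, on polyunsaturated fatty acids, on steroids and on lipids of the eggshell. The CYP2 and CYP3 clans hold most of the members linked to foreign compounds, the CYP4 clan holds fatty acid hydroxylases, and the mitochondrial clan receives its electrons by another route.

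The libraries held 16982857 to 41671106 recovered reads. Of these reads, 21.6% to 25.04% belonged to the top 10 genes of the library in somatic AID with auxin, and 13.7% to 18.02% in the other 5 groups. The raga-1 transcript itself had 1412 to 1628 normalized counts in somatic AID with auxin and 1646 to 1741 without it, 1552 to 1655 with and 1614 to 1747 without auxin in neuronal AID, and 2777 to 2921 with and 2673 to 3025 without auxin in wild type. RNA came from whole animals, so fewer cells of a type and less RNA per cell cannot be told apart. With auxin in somatic AID, 7 of 9 oocyte and eggshell markers were lower and 2 higher (limma, adjusted p of 0.01 or less). Of 4 germline markers 2 were lower. Of 3 pharynx markers 3 were higher, of 4 body wall muscle markers 3 were higher and 1 lower, and of 4 intestine markers 1 was higher. Of 5 neuron markers 1 was higher and 1 lower. Of 4 tested early embryo markers 1 was higher, and none of 3 tested hypodermis markers passed. Of all genes tested, 16.01% were higher and 19.6% lower, and the marker counts were not tested against these shares. The 4 sperm markers stayed low, at most 12.2 normalized counts for any of them in any library.

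The members fell into 15 families and 25 subfamilies. Family 33 was the largest with 18 members, followed by family 13 with 14, family 35 with 11 and family 34 with 9. By clan, 45 members belonged to CYP2 (31 tested), 21 to CYP3 (15 tested), 13 to CYP4 (12 tested) and 1, cyp-44A1, to the mitochondrial clan. Chromosome V carried 43 of the 80. When neighbours at most 20 kb apart were joined, 36 members lay in 6 arrays of 3 or more genes. The arrays with the most members held cyp-35A5, cyp-35B1 to cyp-35B3 and cyp-34A5 to cyp-34A10 on chromosome V (10 members in 36.7 kb) and cyp-13A1 to cyp-13A9 on chromosome II (9 members in 28.4 kb). Neighbours in an array and members of a subfamily are similar in sequence, which makes their separate read counts uncertain. Just inside the filter stood members such as cyp-13A11, and just outside it cyp-33D3, which passed 10 normalized counts in 2 libraries, and cyp-35A1, cyp-13A3 and cyp-34A1, which did so in 1 library each. cyp-35A1 is known as a xenobiotic-inducible gene, and it reached at most 12.2 normalized counts.

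Levels between genes were compared as normalized counts per kb of exon in wild type without auxin. The top of the order belonged to cyp-31A2 with 2422 ± 57.6 per kb (SD, n = 4), cyp-31A3 with 1707 ± 68.5, cyp-31A5 with 1428 ± 102 and cyp-44A1 with 960.2 ± 26.6. None of these overlapped its neighbour in the order in any of the 4 libraries. CYP-31A2 and CYP-31A3 are known to act with EMB-8 in making the lipid layer of the eggshell. Next came cyp-35A2 with 647 ± 184 per kb and cyp-35C1 with 448 ± 142.3, which overlapped each other. cyp-35A2, a gene linked to fat storage and induced by foreign compounds, varied far more between libraries than the 4 genes above it. cyp-31A2 alone made up 21.4% of the summed normalized counts of all 80 members, cyp-31A3 14.8% and cyp-31A5 10.8%.

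**Figure D1:**
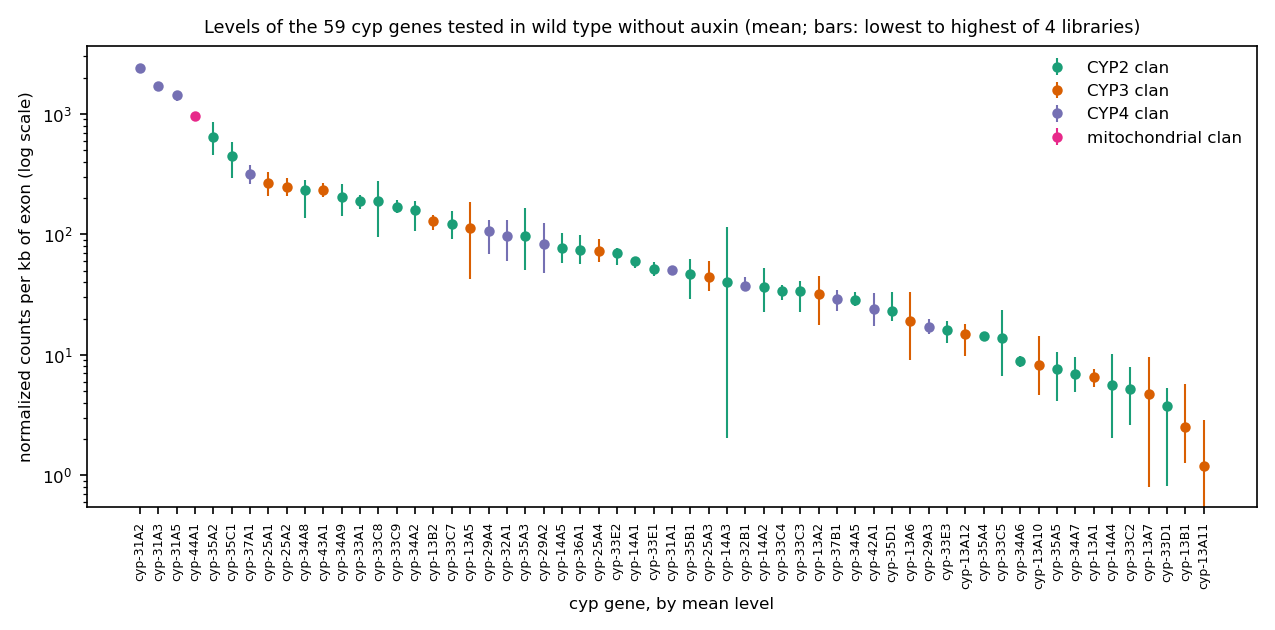
Levels of the 59 tested cyp genes in wild type without auxin, as normalized counts per kb of exon on a log axis, ordered by their mean. Points are means, bars run from the lowest to the highest of 4 libraries (down to 0, below the axis, for cyp-13A11), and colours give the clan. The cyp-31A genes and cyp-44A1 stand at the top with short bars, and cyp-14A3 has the longest bar.

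In somatic AID, auxin changed 18 of the 59 tested P450 genes, 12 upward and 6 downward (limma, adjusted p of 0.01 or less over all 13150 genes tested). Those that rose were cyp-37B1, cyp-34A2, cyp-29A3, cyp-13A2, cyp-34A5, cyp-35B1, cyp-29A4, cyp-34A9, cyp-25A3, cyp-25A2, cyp-33C7 and the pseudogene cyp-31A1. Those that fell were cyp-14A4, cyp-33E2, cyp-31A2, cyp-31A5, cyp-44A1 and cyp-31A3. The background was high in this comparison: 35.6% of all genes tested were called, 16.01% higher and 19.6% lower, against 30.5%, 20.3% and 10.2% of the P450 genes. The share of calls counting both directions was near the background and is no result about the family, and the shares by direction were not tested against it. The median log2 fold change was 0.32 over the 59 members and 0.01 over all genes, with 42 members above 0 and 17 below. This upward median depended on the scaling: under quantile normalization it was -0.02 with 29 members above 0, and 10 members were called, 3 higher and 7 lower (30.0% of calls higher, against 66.7% on the deposited scale). The median and the calls over all genes under quantile normalization are not given here. The shift under that scaling can therefore not be read as particular to the P450 genes.

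**Figure D2:**
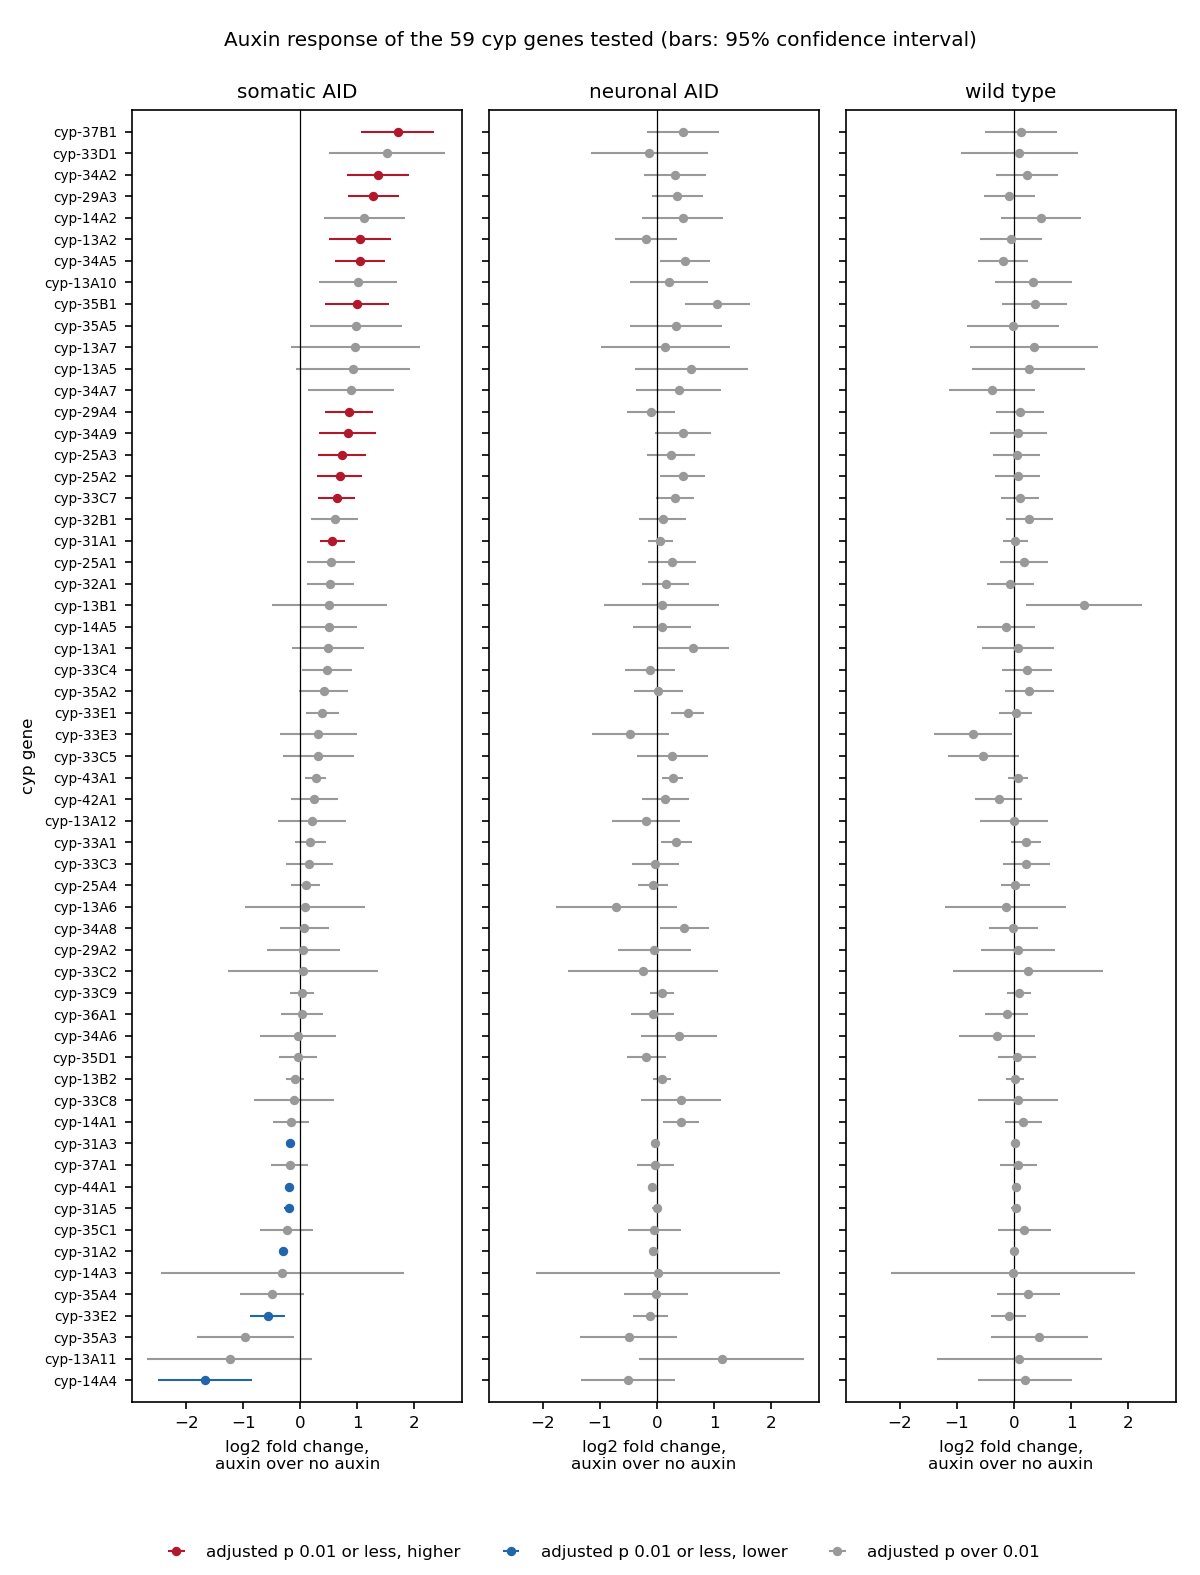
log2 fold change of auxin over no auxin for each of the 59 tested cyp genes in somatic AID, neuronal AID and wild type, ordered by the somatic value. Bars are 95% confidence intervals, and colour marks an adjusted p of 0.01 or less. In somatic AID 12 genes are marked as higher and 6 as lower, and none is marked in neuronal AID or wild type.

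The most abundant members fell together and by small amounts. cyp-31A2 (WBGene00010354, chromosome IV, 11403961 to 11406091, plus strand, WBcel235) had 3004, 3219.7, 3056 and 3160.2 normalized counts in somatic AID with auxin, against 3685, 3883, 3902 and 3899.6 without it. All 4 auxin libraries lay below all 20 other libraries of the study, whose lowest value was 3666. The change was a 0.809-fold level (log2 fold change -0.30, SE 0.03, limma adjusted p = 2.89e-08). For cyp-31A3 (WBGene00021200, chromosome IV, 4761049 to 4762885, plus strand), auxin libraries had 2378, 2364, 2398 and 2369.8 and libraries without auxin 2575, 2737, 2697 and 2800.3. These too were below all 20 others (log2 fold change -0.18, SE 0.03, limma adjusted p = 2.07e-05). cyp-31A5 (WBGene00013381, chromosome IV, 13401289 to 13403842, plus strand) had 1714, 1823, 1770.4 and 1735 with auxin and 2183, 1943, 1967 and 2024 without (log2 fold change -0.20, SE 0.04, limma adjusted p = 3.28e-04). Its groups did not overlap within the strain, although cyp-31A5 reached down to 1807 in wild type without auxin. The 3 coding genes lie several megabases apart on chromosome IV, and since they are close copies their separate counts are uncertain. Their sum, which holds whatever the division of reads among these 3, was 7096 to 7407 in somatic AID with auxin and 8442 to 8724 without it, and it did not overlap under TMM rescaling (7173 to 7456 against 8418 to 8709.6) or quantile normalization (7389.8 to 7585 against 8293 to 8637).

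cyp-44A1 (WBGene00000375, chromosome II, 5504044 to 5505975, plus strand), the mitochondrial-clan member, had 1354, 1350.5, 1325 and 1338 normalized counts with auxin and 1432, 1585, 1598 and 1533 without it (log2 fold change -0.20, SE 0.03, limma adjusted p = 3.16e-05). The auxin libraries were close together and again below all 20 others. The calls of cyp-31A2, cyp-31A3, cyp-31A5 and cyp-44A1 held without any 1 library and under quantile normalization, where cyp-31A3 was smaller (-0.12). With only replicates 1 and 4, cyp-31A3 (limma adjusted p = 0.0156) and cyp-44A1 (-0.14, limma adjusted p = 0.0364) were not called, and with only replicates 2 and 3, cyp-31A5 was not (-0.12, limma adjusted p = 0.0681). Beside these 4 genes, the oocyte and eggshell markers summed to 324956 to 344359 normalized counts with auxin and 349049 to 360199 without it, and their median log2 fold change was -0.23. They did not move as one: 7 of the 9 were called lower, and the eggshell genes perm-2 and perm-4 were called higher. Their log2 fold changes were 0.68 (limma adjusted p = 5.47e-12) and 0.63 (limma adjusted p = 7.65e-12). The germline markers had a median of -0.12, with 2 of 4 called lower, beside 19.6% of all genes tested. The part of these tissues in the fall of the P450 genes was not tested.

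**Figure D3:**
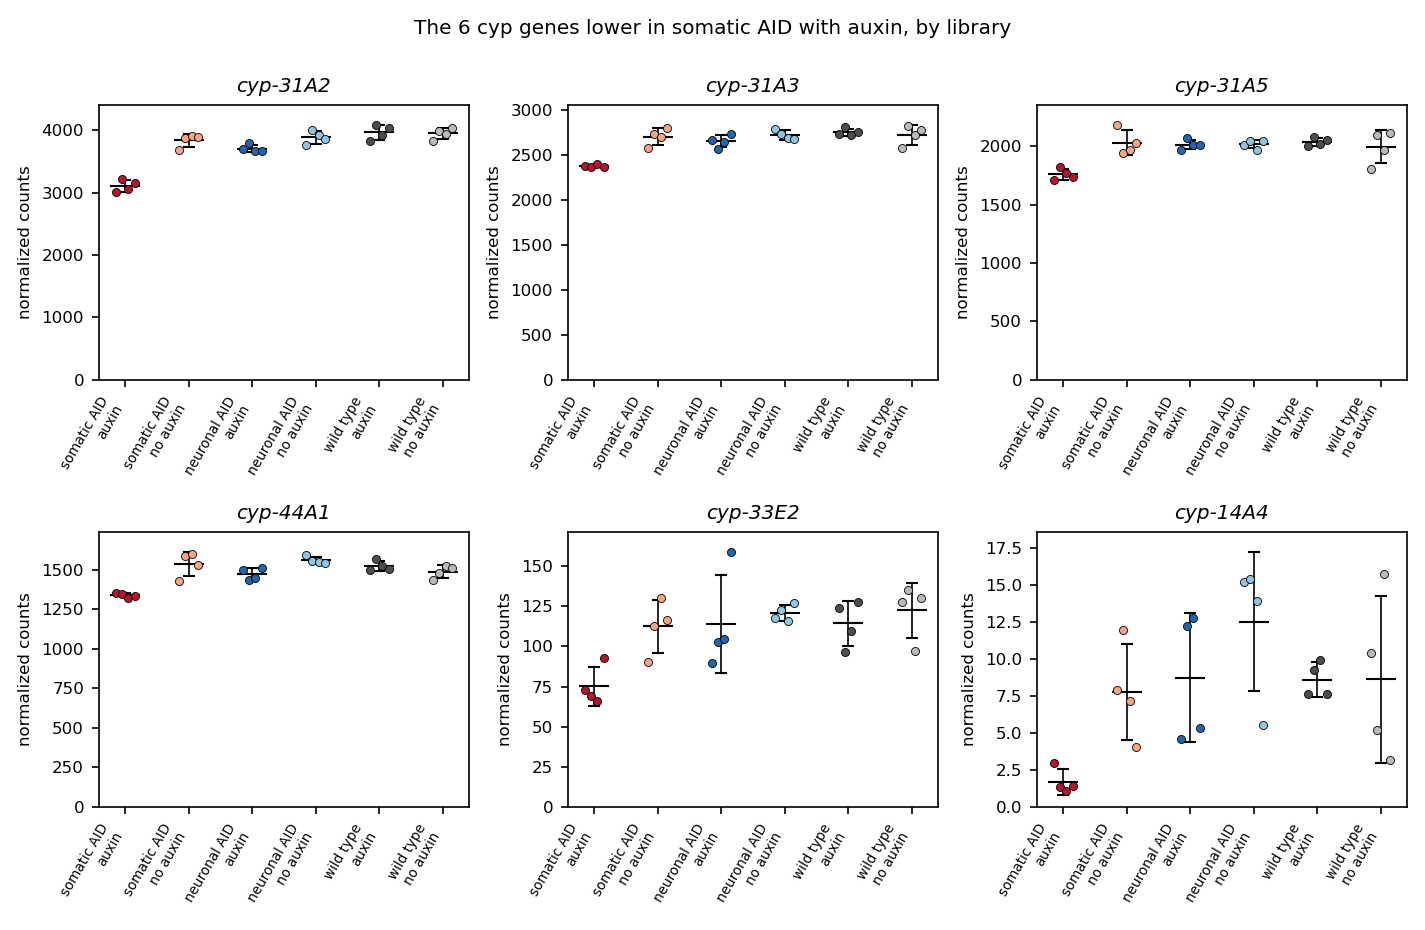
Normalized counts of the 6 cyp genes lower in somatic AID with auxin, in all 24 libraries. Points are libraries, the horizontal bars are means and the error bars are SD (n = 4). The auxin group of somatic AID lies below the other groups in each panel, with an overlap for cyp-33E2 and cyp-31A5.

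2 less abundant members also fell. cyp-33E2 (WBGene00018334, chromosome IV, 8612334 to 8614698, plus strand), a P450 that makes eicosanoids from polyunsaturated fatty acids and is expressed in the pharynx, had 72.7, 69.1, 66.2 and 92.9 normalized counts with auxin and 90.5, 113, 130.3 and 116 without it (log2 fold change -0.57, SE 0.16, limma adjusted p = 0.00457). The highest auxin library overlapped the lowest library without auxin. For cyp-33E2 the change was -0.32 and was not called in replicates 1 and 4 alone (limma adjusted p = 0.329), and it was -0.92 under quantile normalization. The pharynx markers myo-1, myo-2 and tnc-2 moved the other way, with sums of 1864 to 2179 with auxin and 899 to 1214 without it, and their part in the level of cyp-33E2 was not tested. cyp-14A4 (WBGene00011009, chromosome X, 13282043 to 13284197, minus strand) was close to the limit of counting, with 2.99, 1.35, 1.05 and 1.39 normalized counts with auxin and 7.94, 12, 7.17 and 4.06 without it (log2 fold change -1.68, SE 0.42, limma adjusted p = 0.00237). DESeq2 on recovered reads did not call it (adjusted p = 0.0131).

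The largest called rises were in members of low to middle abundance. cyp-37B1 (WBGene00009226, chromosome V, 16278116 to 16280616, plus strand), of the CYP4 clan, had 160.4, 69.1, 46.3 and 128 normalized counts with auxin and 23.8, 30.4, 33.5 and 21.6 without it, 3.26-fold (log2 fold change 1.71, SE 0.32, limma adjusted p = 1.82e-04). All auxin libraries were above all libraries without auxin, but they spread more widely, and auxin replicates 2 and 3 fell within the wild type range. For cyp-37B1 in replicates 2 and 3 alone the log2 fold change was 0.81 (limma adjusted p = 0.149), against 2.60 in replicates 1 and 4 alone. Without auxin, somatic AID had 27.3 ± 5.54 (SD, n = 4) and wild type 50.3 ± 9.16 (limma adjusted p = 0.365), a difference that did not pass the test. cyp-34A2 (WBGene00011699, chromosome V, 15288777 to 15291095, minus strand) had 512, 752, 973 and 392 with auxin and 348, 169, 232 and 246 without (log2 fold change 1.36, SE 0.28, limma adjusted p = 3.72e-04). The groups of cyp-34A2 did not overlap within the strain, with auxin replicates 2 and 3 highest, and replicates 1 and 4 alone gave 0.61 (limma adjusted p = 0.076), against 2.11 in replicates 2 and 3 alone.

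cyp-29A3 (WBGene00021412, chromosome V, 59239 to 63633, plus strand), a CYP4-clan enzyme of eicosanoid synthesis, had 58.8, 48.8, 70.4 and 58.2 normalized counts with auxin and 12.7, 28.6, 31.1 and 27.04 without it, 2.42-fold (log2 fold change 1.28, SE 0.23, limma adjusted p = 9.60e-05). Its 4 auxin libraries were above all 20 others, of which the highest was 44.1. cyp-34A5 (WBGene00015040, chromosome V, 3955701 to 3957708, minus strand), in the chromosome V array, had 77.7, 63.7, 69.4 and 67.95 with auxin and 25.4, 49.8, 41.8 and 22.99 without (log2 fold change 1.04, SE 0.22, limma adjusted p = 6.09e-04). The auxin libraries were tightly placed above those without auxin but overlapped neuronal AID with auxin, which reached 65.0. Under quantile normalization the change of cyp-34A5 was 0.66 and was not called (limma adjusted p = 0.0197), and in replicates 2 and 3 alone it was 0.53 (limma adjusted p = 0.0907), against 1.55 in replicates 1 and 4 alone. For cyp-29A3 replicates 2 and 3 alone gave 0.95 (limma adjusted p = 0.055).

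cyp-13A2 (WBGene00011676, chromosome II, 9783384 to 9787629, minus strand), of the CYP3 clan, had 185, 119, 148 and 211 normalized counts with auxin and 79.4, 76.6, 65.7 and 91.95 without it, again above all 20 other libraries (log2 fold change 1.05, SE 0.28, limma adjusted p = 0.00357). cyp-35B1 (WBGene00019472, chromosome V, 3939032 to 3941237, plus strand), a target of the forkhead factor DAF-16, had 116, 150.3, 159.8 and 130.3 with auxin and 65.1, 83.05, 83.7 and 50.03 without (log2 fold change 0.99, SE 0.29, limma adjusted p = 0.00714). These groups did not overlap, and the levels with auxin overlapped those of neuronal AID with auxin, which reached 274. cyp-29A4 (WBGene00007140, chromosome V, 9654755 to 9658120, plus strand) had 377, 200.5, 383 and 269 with auxin and 159, 125, 215 and 170.4 without (log2 fold change 0.85, SE 0.21, limma adjusted p = 0.00237), with the lowest auxin library inside the range without auxin. The pseudogene cyp-31A1 (WBGene00000374, chromosome IV, 9101773 to 9103851, minus strand) moved against its 3 coding relatives, with 107, 94.8, 110.4 and 128 normalized counts with auxin and 80.96, 82.1, 62.1 and 71.7 without it (log2 fold change 0.56, SE 0.11, limma adjusted p = 3.27e-04). All auxin libraries were above those without auxin, but the lowest overlapped neuronal AID with auxin, and under quantile normalization the log2 fold change was 0.22 and was not called (limma adjusted p = 0.129).

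**Figure D4:**
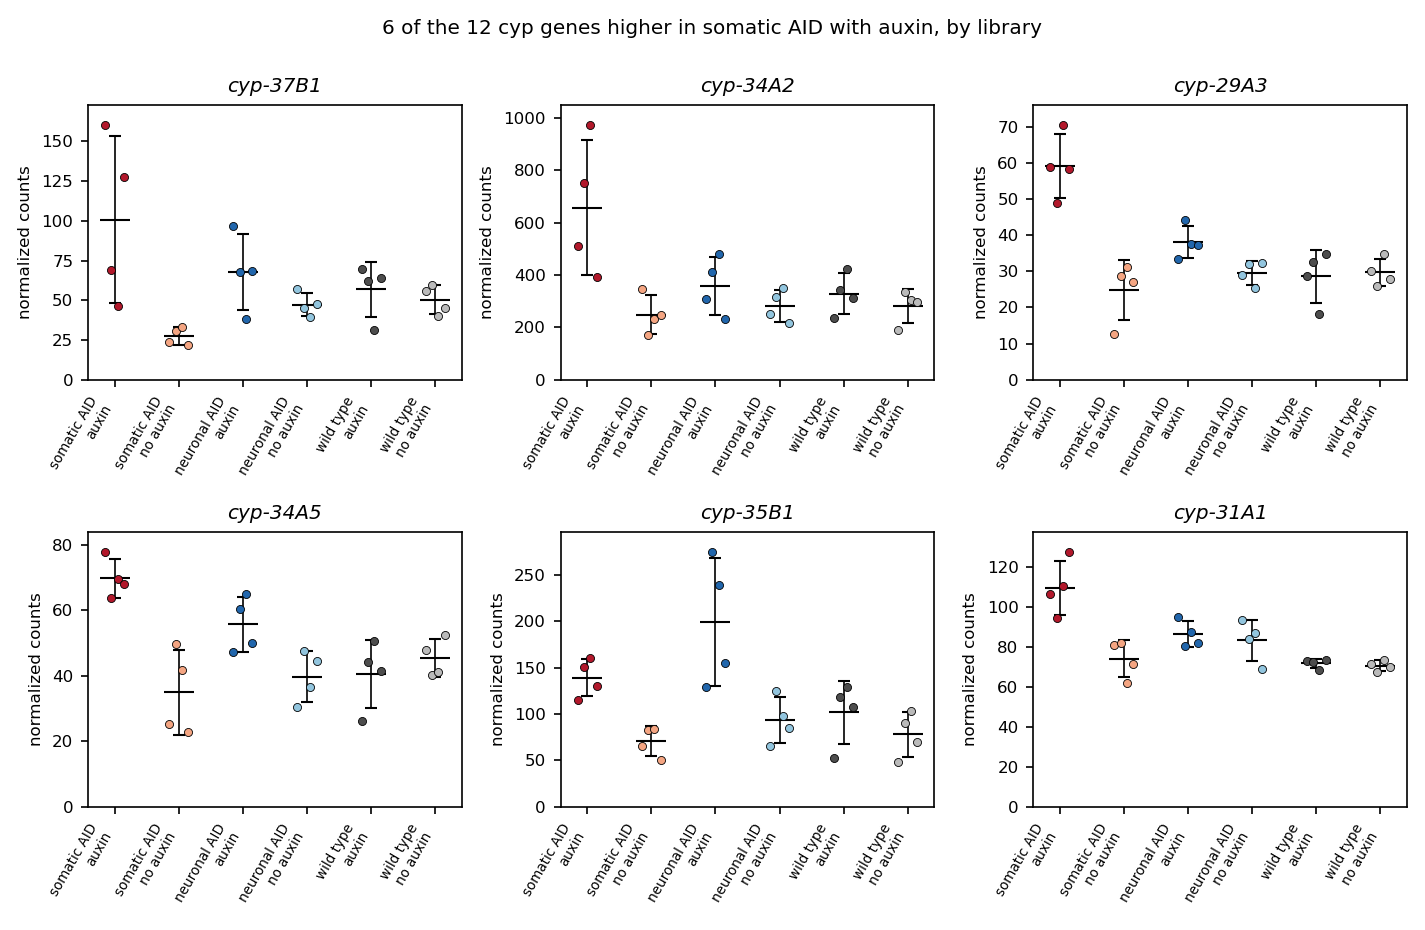
Normalized counts of 6 of the 12 cyp genes higher in somatic AID with auxin, in all 24 libraries. Points are libraries, the horizontal bars are means and the error bars are SD (n = 4). cyp-37B1 and cyp-34A2 spread widely in the auxin group of somatic AID, and cyp-35B1 is also high in neuronal AID with auxin (129 to 274 normalized counts).

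The other 4 calls were the smaller rises of cyp-34A9 (log2 fold change 0.83), cyp-25A3 (0.73), cyp-25A2 (0.69) and cyp-33C7 (0.64), with limma adjusted p between 0.00305 and 0.00947. cyp-34A9 had 455, 545, 538 and 508 normalized counts with auxin and 200.03, 333, 404 and 250.2 without it, with no overlap. cyp-25A2 (359.5 to 611 with auxin, 231 to 402 without), cyp-25A3 (88.05 to 194 with auxin, 57.2 to 103 without) and cyp-33C7 (239.7 to 396 with auxin, 149 to 251 without) did overlap. In all, the auxin and no auxin libraries of somatic AID did not overlap for 17 of the 59 members, against 37.7% of all genes tested, and 6 members (cyp-31A2, cyp-31A3, cyp-44A1, cyp-29A3, cyp-13A2 and cyp-14A4) were apart from all 20 other libraries, against 19.4% of all genes.

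Of the 18 calls, 9 held without any 1 of the 8 somatic AID libraries: cyp-31A1, cyp-31A2, cyp-31A3, cyp-31A5, cyp-44A1, cyp-29A3, cyp-34A2, cyp-34A5 and cyp-37B1. The other 9 missed the threshold without at least 1 library, with the limma adjusted p in parentheses. cyp-13A2 was not called without somatic AID auxin replicate 1 (0.0128), 4 (0.0165) or somatic AID no auxin replicate 3 (0.013). cyp-14A4 was not called without somatic AID no auxin replicate 2 (0.0115). cyp-29A4 was not called without somatic AID auxin replicate 1 (0.0123), 3 (0.0113) or somatic AID no auxin replicate 2 (0.0122), and cyp-33C7 without somatic AID auxin replicate 2 (0.0166) or somatic AID no auxin replicate 2 (0.0147), 3 (0.0129). cyp-25A3 was not called without somatic AID auxin replicate 1 (0.0203), 4 (0.0432) or somatic AID no auxin replicate 1 (0.0342), 3 (0.0278). The calls of the last 4 rested on more libraries each: cyp-33E2 was lost without somatic AID auxin replicate 1 (0.0124), 2 (0.0138), 3 (0.0164) or somatic AID no auxin replicate 2 (0.011), 3 (0.0198), 4 (0.0126), cyp-35B1 without somatic AID auxin replicate 2 (0.0184), 3 (0.021), 4 (0.0137) or somatic AID no auxin replicate 1 (0.0179), 4 (0.0304), cyp-25A2 without somatic AID auxin replicate 1 (0.0196), 2 (0.0302), 4 (0.0205) or somatic AID no auxin replicate 2 (0.0355), 3 (0.0161), 4 (0.0158), and cyp-34A9 without somatic AID auxin replicate 1 (0.0137), 2 (0.0228), 3 (0.0217), 4 (0.0202) or somatic AID no auxin replicate 1 (0.0442), 2 (0.0112), 4 (0.0286). No called member changed its sign in any of these fits. In replicates 1 and 4 alone and in replicates 2 and 3 alone, which use fewer libraries, cyp-31A2 was the one of 14 named called members to be called in both, 10 were called in 1 of the splits and 3 (cyp-13A2, cyp-29A4 and cyp-31A1) in neither.

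The summed level of the family was also read. The 80 members together had 18012 to 18848 normalized counts in somatic AID with auxin and 16984 to 18275 without it, which overlapped. Without the cyp-31A genes the sums were 10688 to 11347 with auxin and 8189 to 9646 without it, with no overlap on the deposited scale. Over the 55 tested members outside cyp-31A, the ranges overlapped under quantile normalization (9658 to 10745 with auxin, 8384.5 to 9872 without). The same 76 members reached 8861 to 12208 in wild type with auxin, so the somatic AID values with auxin were not outside the range of the study. Beside these sums, the intestine markers had 3493 to 5104 with auxin and 2636 to 3697 without it in somatic AID, also overlapping, and their part in the P450 levels was not tested.

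Several members with a known role did not pass the test in somatic AID. cyp-35A2 had 1041, 1170.3, 1320.4 and 940.1 normalized counts with auxin and 889, 726, 1029 and 726 without it (log2 fold change 0.41, SE 0.22, limma adjusted p = 0.125). With a block for replicate number, cyp-35A2 was called higher (adjusted p = 0.00585 in limma, 0.00559 in edgeR). Correlations of same-numbered libraries went down to 0.079 in this comparison, although each library correlated best with its own number in 4 of 4 pairs. cyp-35A3, a xenobiotic-inducible relative, pointed the other way with 36.9, 60.95, 82 and 34.7 with auxin and 96.8, 95.04, 129 and 81.1 without (log2 fold change -0.96, SE 0.43, limma adjusted p = 0.0719). The highest auxin library of cyp-35A3 lay just above the lowest library without auxin, and replicates 2 and 3 were higher than replicates 1 and 4 in most groups. With a term for that split, cyp-35A3 was called lower (limma adjusted p = 0.000431). No sample label gives the split, which was read from these data, and cyp-35A3 is among the genes that show it. That call is therefore no independent support for a change. cyp-36A1, which acts downstream of EGL-9 and HIF-1, had 109 ± 23.6 with auxin and 107 ± 27.1 without (SD, n = 4 each), with a 95% interval of the log2 fold change of -0.34 to 0.40. cyp-13A12, a gene of the response to oxygen after hypoxia, had 28.9 ± 11.4 with auxin and 24.1 ± 5 without, with an interval of -0.39 to 0.80. cyp-35D1, which acts on the drug thiabendazole, had 35.9 ± 2.43 with auxin and 37.1 ± 4.27 without, with an interval of -0.38 to 0.29. cyp-14A1 had 80.4 ± 8.02 with auxin and 91.2 ± 17.8 without, with an interval of -0.48 to 0.15. Just beyond the threshold was cyp-14A2, with 95.7 to 175 with auxin and 36.5 to 86.05 without (log2 fold change 1.12, SE 0.36, limma adjusted p = 0.0132).

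By subfamily, the calls were spread, and with 1 to 8 tested members each their counts are a description beside the 35.6% of all genes called (16.01% higher, 19.6% lower). Of 6 tested cyp-34A members 3 rose (cyp-34A2, cyp-34A5 and cyp-34A9), and the median log2 fold change of the 6 was 0.86. Of 3 tested cyp-29A members 2 rose (median 0.85), of 4 cyp-25A members 2 rose (median 0.61), and of 8 cyp-13A members 1 rose (median 0.71), against a median of 0.01 over all genes. The 4 tested cyp-35A members held no call and had a median of -0.04. The cyp-33C subfamily, with 7 tested members, held 1 call and a median of 0.16. By clan, the medians were 0.18 for CYP2 (5 higher, 2 lower of 31), 0.51 for CYP3 (3 higher of 15) and 0.39 for CYP4 (4 higher, 3 lower of 12). These medians depended on the scaling, and the median over all genes under quantile normalization is not given here. Under quantile normalization that of cyp-33C was -0.18 and that of CYP2 -0.09, both turned in sign, and those of cyp-13A (0.33), CYP3 (0.18) and CYP4 (0.05) were lower than on the deposited scale.

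Genes that sit side by side did not all move alike. In the array of 10 on chromosome V (3936326 to 3972991, WBcel235), cyp-35B1, cyp-34A5 and cyp-34A9 rose, and the log2 fold changes of their tested neighbours were 0.07 for cyp-34A8, -0.04 for cyp-34A6, 0.90 for cyp-34A7 and 0.97 for cyp-35A5, none of them called. dach-1, a gene that the study's supplement lists under the symbol cyp-34A4 and that is not among the 80 by its present name, lies inside this array at 3950023 to 3952097. It had 644, 576, 595 and 625 normalized counts in somatic AID with auxin and 284, 234, 276 and 268 without it (log2 fold change 1.20, SE 0.09, limma adjusted p = 2.05e-09); it was chosen after its values were seen. In the array on chromosome X (13265041 to 13284197), cyp-14A4 fell while cyp-14A2 had 1.12, cyp-14A1 -0.16 and cyp-14A3 -0.32, none called. In the array on chromosome III (3832591 to 3852080), cyp-25A2 and cyp-25A3 rose, and cyp-25A1 had 0.54 and cyp-25A4 0.09, neither called. In the array of 9 on chromosome II (9779181 to 9807569), cyp-13A2 was called, and the tested neighbours had 0.97 for cyp-13A7, 0.92 for cyp-13A5, 0.49 for cyp-13A1 and 0.09 for cyp-13A6, with no call. The median of the 5 was 0.92.

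In neuronal AID, auxin changed no P450 gene at the threshold. limma called 0 of 59, against 0.441% of all genes tested (0.350% higher and 0.0913% lower), and 10 members had an unadjusted p under 0.05. edgeR on recovered reads called 0 and DESeq2 called 1. Here and in the comparisons that follow, the shares of all genes at an unadjusted p under 0.05 and under DESeq2 are not given. Nothing about the family is read from those counts. The median log2 fold change of the members was 0.09. cyp-35B1 came nearest with cyp-33E1. cyp-35B1 had 129, 274, 238 and 154 normalized counts in neuronal AID with auxin and 65.7, 125, 98.4 and 84.7 without it, 2.08-fold (log2 fold change 1.06, SE 0.29, limma adjusted p = 0.0645). All 4 auxin libraries were above all 4 without auxin, and DESeq2 on recovered reads called the rise (adjusted p = 0.00566), as did limma with a term for replicates 1 and 4 against 2 and 3 (adjusted p = 0.00124). That split is given by no sample label and is shown by cyp-35B1 itself, so the call with the term is no independent support. A block for replicate number also gave a call for cyp-35B1 (adjusted p = 0.000324 in limma, 0.000116 in edgeR). cyp-33E1 had 128, 146, 165 and 135 with auxin and 95.3, 103, 93.2 and 101 without, also without overlap (log2 fold change 0.54, SE 0.15, limma adjusted p = 0.0637). It was chosen after its values were seen. Beside these genes, ges-1 was the one intestine marker called in neuronal AID (0.55 on the log2 scale, limma adjusted p = 0.00784). The others of the list pointed the other way and were not called: act-5 (-0.08), elt-2 (-0.15) and ifb-2 (-0.18), with a list median of -0.12. The 4 intestine markers summed to 3025 to 3970.4 with auxin and 2833 to 3731 without it, and their part in the levels of cyp-35B1 was not tested. For the abundant genes the intervals were narrow: the 95% interval of the log2 fold change was -0.12 to -0.01 for cyp-31A2, -0.09 to 0.02 for cyp-31A3, -0.08 to 0.08 for cyp-31A5 and -0.14 to -0.02 for cyp-44A1. Those of cyp-31A2 and cyp-44A1 leave out 0 before adjustment. For cyp-29A3 it was -0.10 to 0.80, for cyp-37B1 -0.18 to 1.09 and for cyp-34A2 -0.23 to 0.85.

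In wild type, auxin called 0 of 59 members with limma, as it called 0% of all genes, and 2 members had an unadjusted p under 0.05. edgeR and DESeq2 also called 0 members. cyp-31A2 had 3823, 4085, 3921 and 4029.8 normalized counts with auxin and 3822, 3994, 3944 and 4041 without it, and cyp-29A3 had 28.8, 32.5, 18.2 and 34.7 with auxin and 30.1, 25.9, 34.7 and 27.9 without. Both genes overlapped between the groups. Without auxin, no member passed the test between an AID strain and wild type. limma called 0 of 59 members in somatic AID against wild type (0.213% of all genes, 0.0228% higher and 0.190% lower, 4 members with an unadjusted p under 0.05) and 0 of 59 in neuronal AID against wild type (0.00760% of all genes, 3 members with an unadjusted p under 0.05). Of the 18 genes called in somatic AID with auxin, cyp-37B1 had the smallest p between somatic AID and wild type without auxin, with a log2 fold change of -0.86 (limma adjusted p = 0.365).

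The difference between strains in the response was tested directly. Against the wild type response, the somatic AID response differed for 6 of 59 members, 2 higher and 4 lower (limma, against 16.8% of all genes tested, 7.11% higher and 9.67% lower). The differences on the log2 scale were -0.31 for cyp-31A2 (adjusted p = 9.95e-06), -0.23 for cyp-44A1 (adjusted p = 6.45e-04), -0.20 for cyp-31A3 (adjusted p = 8.57e-04), -0.23 for cyp-31A5 (adjusted p = 0.00416), 1.36 for cyp-29A3 (adjusted p = 0.00313) and 1.23 for cyp-34A5 (adjusted p = 0.00564), all from limma. The call of cyp-31A5 was lost without somatic AID auxin replicate 1 (0.0105), and that of cyp-34A5 without somatic AID auxin replicate 1 (0.0133), 4 (0.01) or somatic AID no auxin replicate 1 (0.0138), 4 (0.0133) or wild type auxin replicate 1 (0.0134) or wild type no auxin replicate 1 (0.0116), 4 (0.0135), with the limma adjusted p in parentheses (0.01 there stands for a value just above the threshold). Under quantile normalization 4 of the 6 differences were not called: cyp-29A3 (1.00, limma adjusted p = 0.0242), cyp-34A5 (0.84, 0.0533), cyp-31A3 (-0.14, 0.0167) and cyp-31A5 (-0.19, 0.0159). In replicates 2 and 3 alone the difference of cyp-34A5 was 0.32 (limma adjusted p = 0.55) and that of cyp-31A5 -0.13 (limma adjusted p = 0.218). Against the neuronal AID response, only cyp-31A2 differed, by -0.24 (limma adjusted p = 2.89e-04, against 11.2% of all genes tested, 5.22% higher and 6.02% lower). DESeq2 on recovered reads called 5 members there, with no share over all genes to set beside it. For cyp-35B1 the difference was -0.07 with a 95% interval of -0.86 to 0.73, which spans 0 and is wide. The neuronal AID response differed from the wild type response for 0 of 59 members in limma (0.0152% of all genes), with 3 at an unadjusted p under 0.05 and 0 called by edgeR or DESeq2.

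Genes that serve or regulate P450 enzymes were read in the same fit. Both cytochrome b5 genes rose in somatic AID with auxin: cytb-5.1 had 761, 739.6, 674 and 782 normalized counts with auxin and 509.6, 597, 620.3 and 494 without it (log2 fold change 0.42, SE 0.10, limma adjusted p = 0.00236), and cytb-5.2 changed by 0.34 on the log2 scale (adjusted p = 4.03e-06, limma). The reductase gene emb-8 had 4933, 5163, 4705 and 4773 with auxin and 4856, 4305, 4383 and 4493 without (log2 fold change 0.12, SE 0.04, limma adjusted p = 0.0106), which overlapped and just missed the threshold. Under both other scalings emb-8 was called higher (log2 fold change 0.13, limma adjusted p = 0.00561 under TMM, and 0.19, limma adjusted p = 0.000165 under quantile normalization). daf-9, which encodes the P450 of steroid hormone synthesis and does not carry a cyp symbol, had at most 18.6 normalized counts in any library and was not called (log2 fold change 0.34). These genes were read as a list of 6 with hpo-19, which was not called (log2 fold change 0.04, limma adjusted p = 0.359), and T05H4.4, too low to test. Of the 5 tested, 2 were called higher, beside 16.01% of all genes tested. Of 13 regulators, 4 rose and 2 fell, beside 16.01% higher and 19.6% lower of all genes tested, and nothing particular to the list is read from this count. The rises were daf-12, the receptor of the hormone made by DAF-9 (0.68), hif-1, the hypoxia-inducible factor (0.45), nhr-176, a receptor needed for the induction of cyp-35D1 by thiabendazole (0.70), and pqm-1, a zinc finger factor (1.07). pqm-1 had 747, 646, 782 and 745 with auxin and 298, 371, 324 and 404 without. The falls were nhr-46, which acts with cyp-36A1 (-0.28), and nhr-86 (-0.17). daf-16, skn-1, nhr-8, nhr-49, mdt-15, ahr-1 and aha-1 were not called. Neither were any of the 7 heme handling genes or the 2 epoxide hydrolase genes, ceeh-1 and ceeh-2, whose products act on epoxides that P450 enzymes make. Under quantile normalization nhr-176 (0.36) and nhr-86 (-0.14) kept their direction and lost the call, while emb-8 gained one. In neuronal AID, none of these genes was called.

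The choice of scaling moved the members unevenly, as the plot of log2 fold changes under both scalings shows. Of the 18 calls, 9 were made under both scalings: the 6 falls and the rises of cyp-37B1, cyp-34A2 and cyp-29A3. The other 9, all rises, were not called under quantile normalization, where cyp-13B2 was called lower instead (log2 fold change -0.33, limma adjusted p = 0.00139, against -0.09 on the deposited scale). The sign of all 18 was the same under both.

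**Figure D5:**
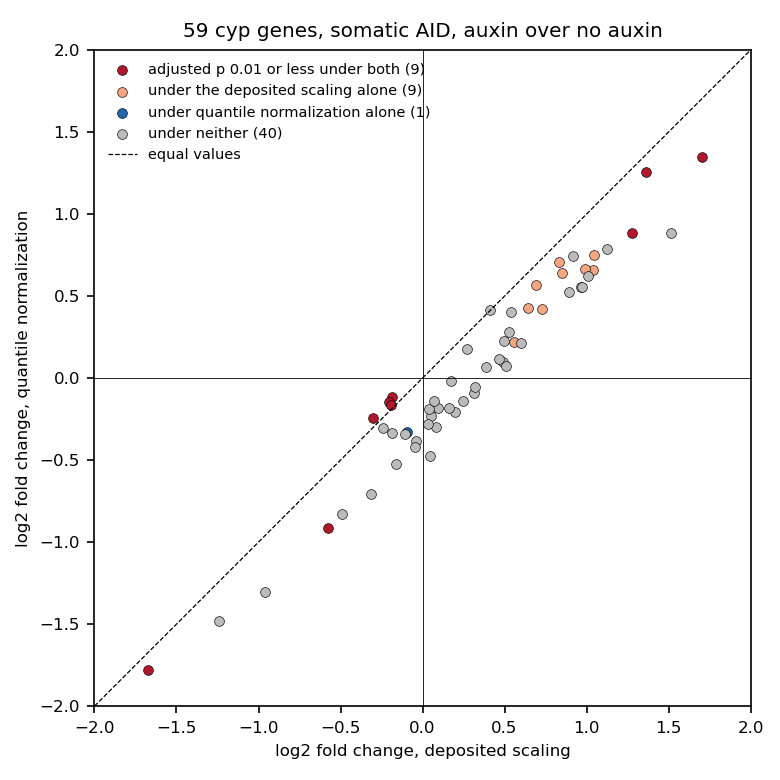
log2 fold change of auxin over no auxin in somatic AID for the 59 tested cyp genes, on the deposited scale (x axis) and after quantile normalization (y axis). Colours give the calls at an adjusted p of 0.01 or less (9 under both, 9 under the deposited scale alone, 1 under quantile normalization alone and 40 under neither), and the dashed line marks equal values. Most points above about 0 lie below the line, and the 4 abundant genes near the origin lie just above it.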

How the data were processed

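RNA of 24 whole-animal samples was captured by poly(A) and sequenced as stranded paired reads. Per the study's methods and the submitters' processing notes, read quality was examined in MultiQC, FastQC 0.11.5 and STAR 2.7.0, and transcripts were quantified with Salmon 1.4.0 on WBcel235, summed with tximport and scaled with DESeq2 1.34.0 (R 4.1.2). How Salmon treated strand is not given in the sources used here, and overlapping or antisense genes may share reads. The deposited values are a signal, the gene counts after the authors' division by a size factor of each library, and are called normalized counts here. Every library's values (100%) are multiples of the worth of a read within 0.01, and dividing by it gave back the reads. In somatic AID auxin replicate 1, where this step is close to 1, the largest deviation from a whole multiple was 0.00027.

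Members were found by symbol through a table of gene names (74) or RefSeq locus tags with the same coordinates (6). Exon lengths and positions are from Ensembl 115 (WBcel235). Genes with 10 or more normalized counts in 4 or more libraries were tested with limma 3.58.1 (R 4.3.3) on log2 values with a pseudocount of 1, so fold changes of low genes are understated. A trend was fitted, with 1 mean per group over all 24 libraries, and the call was a p of 0.01 after Benjamini-Hochberg adjustment. The step was tested on simulated data that held no replicate effect, unlike these libraries. Of simulated 1.25-fold changes, 38% were called in the somatic AID comparison and 40% in the neuronal AID comparison. For 2-fold changes the shares were 82% and 92%, so small changes can go uncalled. Biological replicates were collected on separate days.

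The settings varied were the pseudocount (0.5, 4), the filter (none, 50), TMM rescaling, quantile normalization, the tests of DESeq2 1.42.0 and of edgeR 4.0.16 with quasi-likelihood, both on recovered reads, a block for replicate number in edgeR and limma, an adjusted p of 0.05, the compared libraries only, replicates 1 and 4 or 2 and 3 alone, a term for that split, and each library left out. Members and lists were chosen with earlier results of these data known. No sample label gives the split of replicates 1 and 4 against 2 and 3, which was read from these data. Members named are those called in the neuronal, wild type, baseline or difference comparisons, the 10 smallest adjusted p in somatic AID, the 6 largest rises and falls called there that average 50 normalized counts or more, the 5 highest in wild type and 12 of known role. Other named members were chosen after their values were seen. Promoter motifs and sequences were not analysed here. The intestine list was read without opt-2, which did not match by name.

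Same-numbered libraries deviated together in wild type, auxin against no auxin (correlations 0.103 to 0.231), and in neuronal AID against wild type without auxin (0.102 to 0.234). Those numbers were taken to pair the samples there, but the main fit held no term for replicate number in any comparison. In the other comparisons at least 1 pair fell under 0.1, a level chosen here, which does not show the samples to be unpaired. For auxin against no auxin in somatic AID and in neuronal AID, each library still correlated best with its own number in 4 of 4 pairs. Calls with a block for replicate number are given below.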

Additional observations from a re-analysis of the deposited data

Results flagged for a closer look

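2 of 120 groups of 4 libraries, over the 20 named members, held a library far from the other 3, where chance gives about 1 in 20. cyp-31A2 had 3684.7 normalized counts in somatic AID no auxin replicate 1, against 3883 to 3902 in the other 3. cyp-14A4 had 5.56 in neuronal AID no auxin replicate 4, against 13.9 to 15.5 in the other 3.

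The response to auxin differed between strains for 6 members (limma, difference of log2 fold changes over all genes tested). Somatic AID less wild type gave -0.31 for cyp-31A2 (limma adjusted p = 9.95e-06), -0.23 for cyp-44A1 (limma adjusted p = 0.000645), -0.20 for cyp-31A3 (limma adjusted p = 0.000857), 1.36 for cyp-29A3 (limma adjusted p = 0.00313), -0.23 for cyp-31A5 (limma adjusted p = 0.00416) and 1.23 for cyp-34A5 (limma adjusted p = 0.00564). Somatic AID less neuronal AID gave -0.24 for cyp-31A2 (limma adjusted p = 0.000289).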

How the results depend on the processing

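No named member that was called changed sign in any alternative. cyp-31A2 in somatic AID was called in all of them. In somatic AID, 18 members were called, with 10 under quantile normalization, 11 with the compared libraries only, 11 in replicates 1 and 4 alone, 9 in replicates 2 and 3 alone, and 12 to 17 without 1 library. In neuronal AID the 0 calls became 1 (cyp-35B1) under DESeq2, the replicate block in limma or edgeR, and the term for replicates 1 and 4 against 2 and 3, and remained 0 without any 1 library. For somatic less neuronal AID, the 1 call became 2 with a filter of 50, 5 under DESeq2, 2 with the limma replicate block, 3 with the edgeR replicate block, 7 at an adjusted p of 0.05, 2 with the compared libraries only, and 1 to 2 without 1 library. For somatic AID less wild type, the 6 calls became 3 under quantile normalization, 10 with the replicate block in limma or edgeR, 11 at an adjusted p of 0.05, 3 with the compared libraries only, 2 in replicates 2 and 3 alone, and 4 to 8 without 1 library. The 8 calls among partner and regulator genes became 5 in replicates 1 and 4 alone, 3 in replicates 2 and 3 alone and 6 to 9 without 1 library. The counts of 0 in wild type, in both comparisons without auxin and in neuronal AID less wild type were 0 without any 1 library. Where settings changed a count, the cause was not tested beyond the smaller number of libraries that some of them use.

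The replicate block raised the somatic AID count to 24 in limma and in edgeR. Among the named members that gained a call were cyp-35A2 (adjusted p = 0.00585 in limma, 0.00559 in edgeR) and cyp-35A3 (adjusted p = 0.000595 in limma, 0.00215 in edgeR). Same-numbered correlations ran from 0.079 to 0.238 there and from 0.093 to 0.339 in neuronal AID, so not every pair reached the level of 0.1 chosen here. Each library still correlated best with its own number in 4 of 4 pairs of both, and replicates were collected on separate days. In both comparisons the block gave more calls than the main fit. The block changed no call in wild type or in neuronal AID against wild type. Members under about 20 normalized counts, such as cyp-14A4, rest on few reads, and 21 members could not be tested at this depth.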

Other observations

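9 of the 59 tested members (15.3%) had replicates 2 and 3 both above replicates 1 and 4 in at least 5 of the 6 groups, against 2.69% of all 13150 genes tested, and 1 member had both below. The 9 were cyp-14A3, cyp-34A9, cyp-35B1, cyp-35C1, cyp-35A3, cyp-34A2, cyp-29A2, cyp-35A2 and cyp-37A1. They were chosen after their values were seen. The mean of replicates 2 and 3 over all groups was 7.01 times that of replicates 1 and 4 for cyp-14A3, 2.21 times for cyp-35A3, 1.54 times for cyp-35B1 and 1.41 times for cyp-35A2. cyp-14A3 had 3.39, 75.9, 86.9 and 19.5 normalized counts in wild type with auxin and 3.12, 176.47, 55.8 and 14.3 without it, and 3.98 to 12.2 with auxin and 4.76 to 22.7 without it in somatic AID. RNA was extracted from replicates in parallel, and which replicates shared an extraction is not given in the sources used here.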
